A study of Mus musculus with 32 samples.

Results

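Bone morphogenetic proteins (BMPs) are secreted growth factors, and their signal passes from ligand to receptor to SMAD proteins to target genes. Here 10 genes of that chain were followed through denervation atrophy of mouse gastrocnemius (GAS) muscle, taken by symbol from the 33397 genes of the deposited expression table: the ligands Gdf5, Bmp4 and Bmp7, the receptor Bmpr1a, the antagonist Nog, the signal transducer Smad1, the intracellular inhibitor Smad6, and the target genes Id1, Id2 and Id3. Bulk RNA sequencing covered 32 GAS samples in 8 groups of 4, at 0, 1, 3, 5, 7, 14, 21 and 28 d. The labels give C57BL/6 as the strain and sciatic nerve transection as the treatment of every group, 0 d included, and the study describes a sham group that was not denervated and used male mice. Whether the 4 samples of a time point came from separate animals is stated by the study but tied to no column, so p-values measure the spread between these samples. The labels name no transgene in any group.

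In the canonical pathway, a BMP dimer brings together type I receptors such as BMPR1A and type II receptors, the type I kinase phosphorylates SMAD1, SMAD5 and SMAD9, and these enter the nucleus with SMAD4. The Id genes, which code for inhibitors of basic helix-loop-helix factors such as the myogenic regulators, are standard targets of the activated SMADs, and SMAD6 is a feedback inhibitor. Noggin binds BMP ligands outside the cell and keeps them from their receptors. In skeletal muscle, BMP signalling is known as a brake on wasting after loss of the nerve, with GDF5 as a ligand induced by denervation.

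Values are FPKM, fragments scaled to exon length and to the depth of the sample, so levels can be compared between genes. Differences are log2 differences of FPKM + 1, a scale that makes the change of a weakly expressed gene look smaller than it is. Below, a gene rose or fell where limma gave a Benjamini-Hochberg adjusted p under 0.05 over the 22071 genes tested together with a change of at least 1.5-fold on that scale, and every comparison with 0 d uses the same 4 control samples. Depth ran from 14199902 to 17561584 fragments per sample. Mitochondrial genes took 14.5% to 18.2% of the fragments at 0 d and 6.70% to 17.1% after denervation. The median gene with an FPKM of at least 1 lay 0.12 to 0.32 above 0 d on the log2 scale in the deposited values, and rescaling each sample to a common median ratio moved this to -0.02 to 0.03, so values after median-ratio scaling stand beside the results they change. The labels were checked on genes known to respond to denervation: at 0 d and 3 d the mean FPKM of Chrna1, an acetylcholine receptor subunit, was 3.56 and 49.0, and that of Myog was 1.97 and 215. The extraction text in the labels names retinas, while the tissue label names gastrocnemius; myofibre markers summed to 21274 FPKM or more in every sample, and the 4 retina markers found in the table summed to at most 0.222. At 3 d the first sample in the table's order stood apart, at -19.4 on the first principal component (44.7% of the variance) against 0.75 to 6.25 for the other three, so 3 d values are given without it where they turn on it. All 10 genes passed the filter on low values, that is, 4 or more samples with 0.1 FPKM or more. Gdf5 passed through the denervated samples, since 1 of its 29 samples at that level was from 0 d.

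Promoter sequence shows the letters that SMAD proteins are known to favour beside the target genes' response. RefSeq start regions of 6 of the 10 genes were used here (Bmp4, Bmpr1a, Smad6, Smad1, Id2 and Id3). Id2 and Id3 rose in these data and Smad6 did not, and all 3 are known SMAD targets, so the 250 bases before their RefSeq starts (GRCm38.p6) were read for GGCGCC, a GC-rich element bound by SMAD1 and SMAD5. GENCODE places the start of Id2 and Id3 further upstream than RefSeq does. Of the 250 bases, 161 of Id2 and all 250 of Id3 lie in GENCODE exons and are not printed, while 0 of Smad6 do. The 89 bases of Id2 outside the exons, at chr12:25096254-25096342 on the minus strand, lie inside the GENCODE gene (25093799-25097140). By GENCODE they are therefore sequence between exons and not sequence before the start. Shown are these bases and the Smad6 stretch, at chr9:64022060-64022309 on the minus strand, with GGCGCC in capitals.
Id2: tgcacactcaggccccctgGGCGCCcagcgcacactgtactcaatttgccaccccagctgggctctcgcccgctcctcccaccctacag
Smad6: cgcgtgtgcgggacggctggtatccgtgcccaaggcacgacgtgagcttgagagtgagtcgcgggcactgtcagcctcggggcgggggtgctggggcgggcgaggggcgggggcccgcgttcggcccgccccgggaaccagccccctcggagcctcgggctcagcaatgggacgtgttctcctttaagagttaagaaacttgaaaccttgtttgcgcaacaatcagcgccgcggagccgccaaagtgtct
GGCGCC reads the same on both strands. Over the 250 bases it occurred 1 time in Id2, starting 231 bases before the RefSeq start, and was absent from the letters of Id3 and Smad6. Among the other stretches it occurred 1 time in Bmpr1a, 198 bases before the start, and not in Bmp4 or Smad1. GENCODE starts Bmpr1a and Smad1 further upstream too, and 141 bases of the Bmpr1a stretch and 90 of the Smad1 stretch lie in its exons. Of 32851 RefSeq promoters cut to the same 250 bases, 9.586% held it. The shorter SMAD box GTCT, counted on both strands and unable to overlap GGCGCC, occurred 1 time in Id2, 2 times in Id3 and 1 time in Smad6, and 82.86% of all promoters held it. These matches describe letters and not binding.

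Across the chain, the ligand Gdf5 and the 3 Id genes rose, Nog rose briefly, Smad1 rose at 1 d and 28 d, and Bmp4, Bmp7, Bmpr1a and Smad6 did not rise or fall at any time point. At 1 d, 4 of the 10 genes rose (Gdf5, Nog, Smad1 and Id1), against 6.34% of all tested genes that rose. At 3, 5, 7, 14 and 21 d the 4 that rose were Gdf5, Id1, Id2 and Id3, against 13.2%, 14.9%, 15.4%, 14.6% and 11.8% of all tested genes. At 28 d these 4 and Smad1 rose, 5 of 10 against 14.2%. None of the 10 fell, against 2.49%, 6.03%, 3.86%, 4.1%, 3.83%, 3.93% and 4.1% of all genes at 1, 3, 5, 7, 14, 21 and 28 d. The median difference from 0 d over the 10 genes lay between 0.23 (5 d) and 0.53 (3 d), beside 0.03 to 0.15 over all tested genes. After median-ratio scaling that median was 0.11, 0.36, -0.05, 0.03, 0.11, 0.04 and 0.18 in order of time, so it turned at 5 d and shrank at each other time point, and the counts were 2 at 1 d (Gdf5 and Nog), 3 at 5 d (Gdf5, Id2 and Id3) and 4 at each other time point. An F test over all 8 time points passed for 8 of the 10 genes (not Bmp7 or Smad6), and for 63.2% of all genes tested. The genes were chosen with results of these data known, so the counts are a description of this list.

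**Figure D1:**
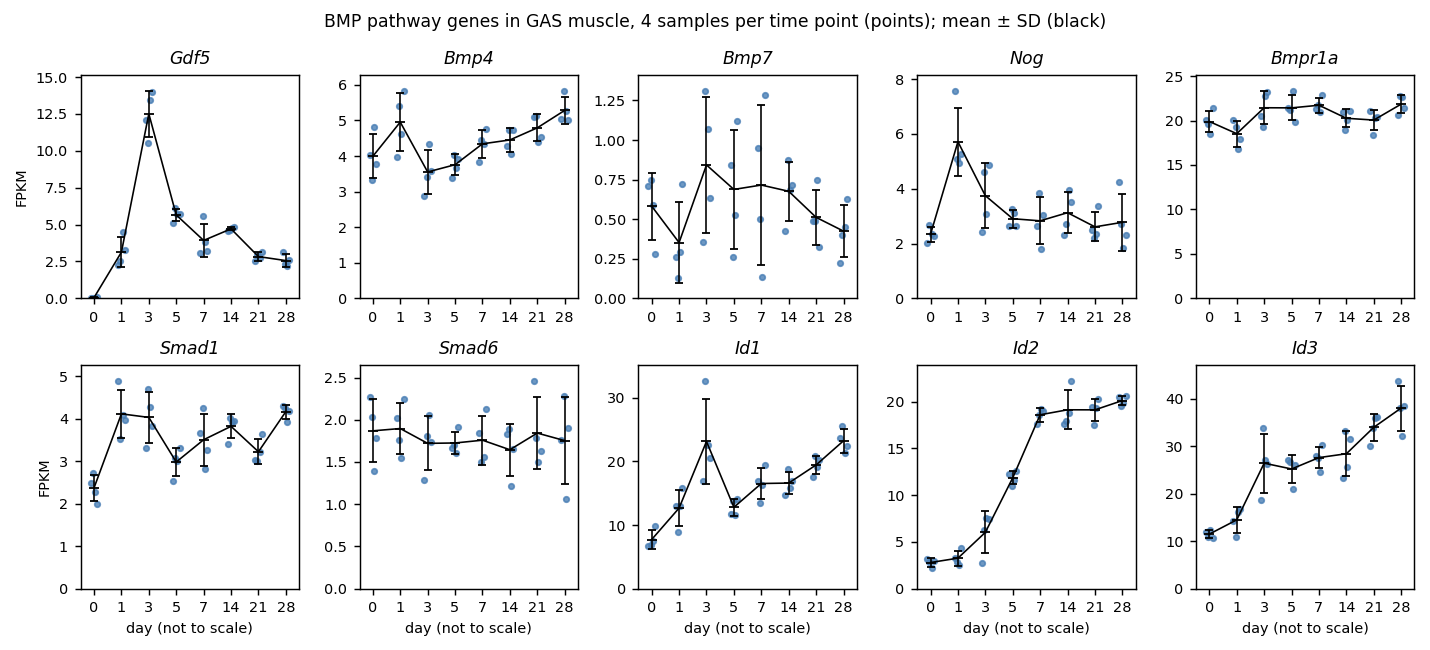
FPKM (vertical axes, each from 0) of the 10 genes at 8 time points (horizontal axes, evenly spaced, 4 samples each); blue points are samples and black marks with bars are means ± SD. Gdf5 peaks at 3 d with a mean of 12.5, Nog peaks at 1 d with 5.71, Id2 climbs to a level of 18.6 to 20.1 from 7 d on, and Bmpr1a stays between means of 18.5 and 21.8.

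Gdf5 (ENSMUSG00000038259, chr2:155941023-155945367 on the minus strand, GRCm38) codes for growth differentiation factor 5, also called BMP14, a ligand best known from joint formation. It was close to undetected in control muscle and present in every denervated sample, with its highest level at 3 d. At 0 d the 4 samples held 0, 0.0289, 0.0565 and 0.109 FPKM, from 0, 1, 2 and 4 fragments. At 1 d they held 2.25, 2.52, 3.26 and 4.49 FPKM. At 3 d they held 10.5, 12.1, 13.4 and 13.97 FPKM, a mean of 12.5 ± 1.54 (SD, n = 4). No denervated sample overlapped the controls, and all 4 samples of 3 d lay above every sample of the other 7 time points. From the summed fragments, 7 at 0 d against 457 at 1 d and 1893 at 3 d, the level was 64.5 times that of 0 d at 1 d (95% counting interval 31.1 to 161) and 255 times at 3 d (123 to 635). These intervals cover counting error only.

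After 3 d the Gdf5 level was lower and stayed above control to the end. The samples held 5.07 to 6.10 FPKM at 5 d, 3.08 to 5.57 at 7 d and 4.59 to 4.83 at 14 d. They held 2.50 to 3.17 FPKM at 21 d and 2.16, 2.31, 2.61 and 3.16 at 28 d, where the summed fragments still gave 52.2 times the control level (25.1 to 131). On the log2 scale the differences from 0 d were 1.95, 3.68, 2.66, 2.21, 2.45, 1.87 and 1.76 in order of time, each with an SE of 0.13, and Gdf5 rose at all 7 time points (limma adjusted p from 7.43e-19 at 3 d to 7.20e-12 at 28 d). All 4 samples were above every control at each time point, as they were for 19.9%, 23%, 35.9%, 32.4%, 36.8%, 32.9% and 36.6% of all tested genes in the same order. Ordered by level, 3 d stood above 5 d (log2 difference 1.02, limma adjusted p = 1.20e-06). Below it came 5, 14, 7, 1, 21 and 28 d in falling order, and no pair of neighbours among these passed the limma test, although the 4 samples of 5 d all lay above those of 14 d (0.22, limma adjusted p = 0.364). Further apart in that order, 28 d lay below 5 d (-0.91, limma adjusted p = 7.42e-06) and 14 d (-0.69, limma adjusted p = 0.00188). At these pairs 19.7% and 3.8% of all tested genes passed. The level at 28 d lay above that of 0 d. The step from 14 d to 21 d (-0.58) passed the test, as did 1.61% of all tested genes, and after median-ratio scaling it was -0.50 and did not pass, nor did it with a pseudocount of 0.1 (-0.72) or without 1 sample of 14 d (-0.57) or either of 2 samples of 21 d (-0.54 and -0.57). The sample that stood apart at 3 d held 12.1 FPKM of Gdf5, and the 3 d difference without it was 3.69.

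The Gdf5 gene shares 936 bases of exon with Gm15557 on the opposite strand, and whether fragments were counted by strand is not given in the sources used here. Gm15557 held at most 0.378 FPKM and 8 fragments in any sample. Macrophage markers (5 of 5 found) also stood highest at 3 d, with sums of 152 to 244 FPKM against 24.7 to 32.5 at 0 d. Cd68 made up most of the 3 d sum, at a mean of 123 FPKM, while Adgre1 (11.1 at 3 d and 15.1 at 5 d) and Csf1r (18.8 and 24.3) had higher means at 5 d. Tenocyte markers (4 of 4 found), from cells related to those in which Gdf5 is best known, stood lowest at 3 d, at 29.7 to 70.3 FPKM against 108 to 194 at 0 d. Fmod and Tnmd made up most of that sum, and Scx, on the same list, went the other way, from a mean of 4.21 FPKM at 0 d to 18.5 at 3 d and 57.6 at 7 d and 14 d. The part of either cell type in the Gdf5 level was not tested, and in bulk muscle fewer cells of a type and less RNA per cell cannot be told apart.

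Bmp4 (ENSMUSG00000021835, chr14:46383520-46390669, minus strand), a ligand of wide use in mesoderm and muscle progenitors, kept a level of 3.55 to 5.28 FPKM in the group means. At 0 d its samples held 3.34, 3.78, 4.04 and 4.81 FPKM. At 28 d they held 5.00, 5.03, 5.27 and 5.82 FPKM, all above every control, where 36.6% of all genes were separated this way. The 28 d difference was 0.34 (SE 0.10, limma adjusted p = 0.00505), below 1.5-fold, and it was 0.02 after median-ratio scaling. At the 6 earlier time points the differences ran from -0.13 to 0.25 and none passed the test as deposited. After median-ratio scaling, 3 d (-0.33, limma adjusted p = 0.00235) and 5 d (-0.38, limma adjusted p = 0.000729) passed it below 1.5-fold, and the values at 7, 14 and 21 d turned negative. The Bmp4 gene shares 89 bases of exon with Gm15217 on the opposite strand. Between neighbouring time points, Bmp4 was lower at 3 d than at 1 d by a log2 difference of -0.39 (SE 0.10, limma adjusted p = 0.00256).

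Bmp7 (ENSMUSG00000008999, chr2:172868012-172940321, minus strand), a ligand best known from kidney and bone, was the lowest of the 10 genes after denervation. Its samples held 0.282 to 0.750 FPKM at 0 d and 0.129 to 1.31 FPKM over the 28 denervated samples. The groups overlapped at every time point. The Bmp7 values at 5, 7 and 14 d turned sign after median-ratio scaling. Differences from 0 d ran from -0.23 (1 d) to 0.20 (3 d) with an SE of 0.19, and of the 28 pairs of time points 0 passed the test (lowest limma adjusted p = 0.0823). At 3 d the 95% interval of the difference, -0.19 to 0.59, left room for a rise of 1.5-fold on this scale. At the control level, the ligand order was Bmp4, Bmp7, Gdf5, and after denervation Gdf5 and Bmp4 were both above Bmp7 in every sample.

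Bmpr1a (ENSMUSG00000021796, chr14:34410734-34503341, minus strand), the type I receptor for BMP2 and BMP4, was expressed at a similar level throughout. It differed little over time, though the F test over the 8 time points passed (limma adjusted p = 0.0240), as did 4 of its 28 pairs of time points. The 4 control samples held 18.5, 19.6, 20.02 and 21.5 FPKM, and the means after denervation ran from 18.5 at 1 d to 21.8 at 28 d. Every denervated group overlapped the controls. As deposited, the differences from 0 d ran from -0.10 to 0.13 with an SE of 0.06 and none passed the test, while after median-ratio scaling they ran from -0.12 to -0.36, with a limma adjusted p under 0.05 at 6 of 7 time points (not 3 d) and below 1.5-fold at each. The direction of the Bmpr1a values therefore turned with the scaling at every time point but 1 d. An antisense gene, Gm17110, shares 290 bases with it and held at most 1.87 FPKM.

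Nog (ENSMUSG00000048616, chr11:89300638-89302332, minus strand) codes for noggin, the antagonist that masks BMP ligands. It rose at 1 d and was back within the control range by 5 d in part of its samples. At 0 d the samples held 2.03, 2.27, 2.36 and 2.69 FPKM. At 1 d they held 4.94, 5.10, 5.25 and 7.56 FPKM, all above every control. The 1 d difference was 1.00 (SE 0.18, limma adjusted p = 9.04e-05), and median-ratio scaling gave 0.88. At 3 d the samples held 2.43, 3.08, 4.62 and 4.86 FPKM, with the lowest, the sample that stood apart, inside the control range. That difference was 0.48 (limma adjusted p = 0.0366), under 1.5-fold, and without that sample it was 0.62 and past both thresholds. After median-ratio scaling it was 0.31 and did not pass (limma adjusted p = 0.157). From 5 d to 28 d the means were 2.61 to 3.13 FPKM and the differences 0.11 to 0.29, none of which passed the test and of which 4 of 5 turned below 0 after median-ratio scaling.

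Smad1 (ENSMUSG00000031681, chr8:79338395-79399518, minus strand) codes for a receptor-regulated SMAD, which carries the signal into the nucleus. At 0 d the samples held 2.00, 2.28, 2.48 and 2.72 FPKM. At 1 d they held 3.52, 3.97, 4.08 and 4.88 FPKM, and at 28 d 3.93, 4.18, 4.26 and 4.30 FPKM. All 4 samples were above every control at 1, 3, 7, 14, 21 and 28 d, and at 5 d 1 of 4 (2.54 FPKM) overlapped the controls. The limma adjusted p was under 0.05 at all 7 time points, with differences of 0.60, 0.57, 0.24, 0.41, 0.52, 0.33 and 0.62 in order of time, and a change of 1.5-fold was reached at 1 d and 28 d. Without the fold threshold, 20.4%, 29%, 36.1%, 37.1%, 38%, 31.7% and 37.8% of all tested genes were higher at these time points. After median-ratio scaling those 2 differences were 0.47 and 0.34 and neither reached 1.5-fold. The adjusted p was then under 0.05 at 4 of 7 time points, and not at 5 d (-0.04), 7 d (0.13) or 21 d (0.11). Without the lowest control sample the 1 d and 28 d differences were 0.55 and 0.57, also under 1.5-fold, and without the highest 1 d sample the 1 d difference was 0.53. At 3 d the difference passed 1.5-fold without the sample that stood apart (0.65), and also without either of the 2 highest controls (0.62 and 0.59) or without another 3 d sample (0.59).

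Smad6 (ENSMUSG00000036867, chr9:63953076-64022059, minus strand), the inhibitory SMAD that BMP signalling itself is known to induce, had group means of 1.64 to 1.90 FPKM. Its control samples held 1.39 to 2.27 FPKM and every denervated group overlapped them. Differences ran from -0.12 to 0.02 with an SE of 0.13, and 0 of the 28 pairs of time points passed the test (lowest limma adjusted p = 0.455). The 95% interval at 3 d was -0.34 to 0.19, whose upper end lies below a 1.5-fold rise on this scale. After median-ratio scaling the differences ran from -0.11 to -0.38, with the sign at 1 d turned, a limma adjusted p under 0.05 at 5, 7, 14 and 28 d, and none at 1.5-fold.

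**Figure D2:**
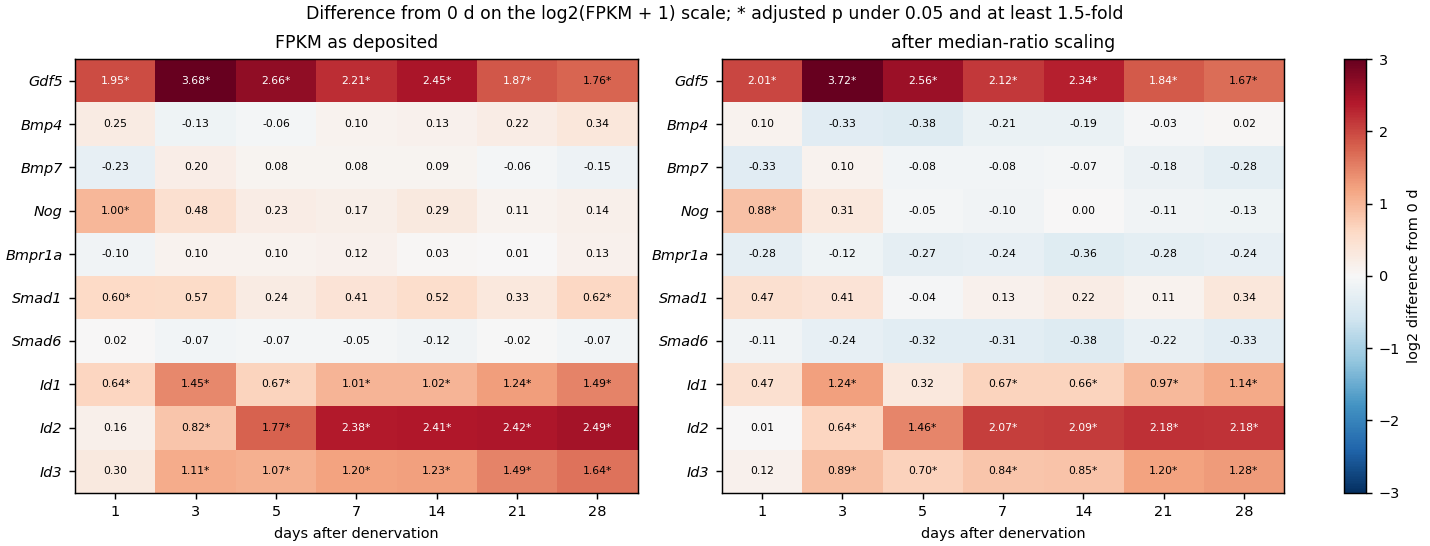
Difference of each gene from 0 d on the log2(FPKM + 1) scale (colour and number) at 7 time points, in the deposited FPKM (left) and after median-ratio scaling (right); stars mark an adjusted p under 0.05 with a change of at least 1.5-fold. Gdf5 and Id3 carry the same stars in both panels, Smad1 carries stars at 1 d and 28 d in the left panel alone, and the Bmpr1a row runs from -0.12 to -0.36 in the right panel.

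The 3 Id genes code for small helix-loop-helix proteins without a DNA-binding domain, which pair with E proteins and hold back factors such as MYOD and myogenin. All 3 were expressed in control muscle and all 3 rose, each along a course of its own. Id3 was the highest of the 3 at 0 d, Id1 next and Id2 lowest in the group means.

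Id1 (ENSMUSG00000042745, chr2:152736251-152737410, plus strand) rose at all 7 time points and along a course with a dip. At 0 d the samples held 6.71, 6.82, 7.45 and 9.88 FPKM. At 1 d they held 8.91, 12.9, 12.9 and 15.9 FPKM, and the lowest of these lay inside the control range. At 3 d they held 16.9, 20.5, 22.6 and 32.6 FPKM, all above every control, and the 16.9 came from the sample that stood apart. Means of 12.8, 16.5, 16.6 and 19.5 followed from 5 d to 21 d. At 28 d the samples held 21.3, 22.4, 23.7 and 25.6 FPKM, above every sample of 0, 1, 5, 7, 14 and 21 d, with 3 d overlapping. The differences from 0 d were 0.64, 1.45, 0.67, 1.01, 1.02, 1.24 and 1.49 in order of time (SE 0.15, limma adjusted p from 3.06e-09 at 28 d to 0.00158 at 1 d). After median-ratio scaling, 1 d (0.47) and 5 d (0.32) fell short of 1.5-fold, and so did 1 d without the lowest control sample (0.58) or without the highest 1 d sample (0.53). Without the sample that stood apart the 3 d difference was 1.58. The drop from 3 d to 5 d was -0.77 (SE 0.15, limma adjusted p = 0.000311), and -0.91 without the sample that stood apart.

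Id2 (ENSMUSG00000020644, chr12:25093799-25097140, minus strand) had the largest differences from 0 d among the Id genes from 5 d on and the smallest at 1 d and 3 d, and most of its rise fell between 1 d and 7 d. At 0 d the samples held 2.18, 2.86, 2.92 and 3.19 FPKM. At 1 d they held 2.55, 2.80, 3.29 and 4.37 FPKM, overlapping the controls (difference 0.16, limma adjusted p = 0.550). At 3 d they held 2.76, 6.30, 7.46 and 7.53 FPKM, with the lowest, again the sample that stood apart, inside the control range. From 5 d on no sample overlapped the controls: 11.005, 11.6, 12.2 and 12.6 FPKM at 5 d, and 17.6, 18.6, 19.0 and 19.2 at 7 d. The 4 groups from 7 d to 28 d held 17.5 to 22.2 FPKM, and their means of 18.6, 19.1, 19.1 and 20.1 did not differ between neighbours in the order of levels. Differences from 0 d were 0.82, 1.77, 2.38, 2.41, 2.42 and 2.49 from 3 d to 28 d (SE 0.16, limma adjusted p from 2.87e-13 to 9.70e-05), and Id2 rose at all 6, also after median-ratio scaling. Without the sample that stood apart the 3 d difference was 1.10. The steps from 1 d to 3 d (0.67), from 3 d to 5 d (0.94) and from 5 d to 7 d (0.61, limma adjusted p = 0.0421) each passed the test, as did 30.9%, 23.8% and 1.96% of all tested genes at the same steps. The last did not pass when any 1 sample of 5 d or 7 d was left out, nor with a pseudocount of 0.1, with TPM or without the filter on low values. It passed after median-ratio scaling (limma adjusted p = 0.0165) and without the 3 d sample that stood apart (limma adjusted p = 0.000290).

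Id3 (ENSMUSG00000007872, chr4:136143497-136145755, plus strand) rose from 3 d on. Its samples held 10.6, 10.96, 11.99 and 12.3 FPKM at 0 d. At 1 d they held 10.8, 14.2, 16.1 and 16.8 FPKM, overlapping the controls (difference 0.30, limma adjusted p = 0.119). At 3 d they held 18.7, 26.2, 27.0 and 33.8 FPKM, and from there every sample of every group lay above all controls. Means were 25.2, 27.6, 28.4 and 34.0 from 5 d to 21 d, and the 28 d samples held 32.1, 38.0, 38.5 and 43.7 FPKM. Differences were 1.11, 1.07, 1.20, 1.23, 1.49 and 1.64 from 3 d to 28 d (SE 0.14, limma adjusted p from 8.25e-11 to 2.58e-07), with 0.70 to 1.28 after median-ratio scaling, and the 3 d difference was 1.26 without the sample that stood apart. In the order of levels, 28, 21, 14, 7, 3 and 5 d did not differ between neighbours, and 5 d stood above 1 d (0.77, limma adjusted p = 5.64e-05). Further apart, 28 d stood above 3 d (0.53, limma adjusted p = 0.00317), 5 d (0.57, limma adjusted p = 0.00320) and 7 d (0.44, limma adjusted p = 0.0316). Of all tested genes, 36.4%, 19.7% and 13.1% passed at these pairs. Against 14 d, 28 d did not pass (0.41, limma adjusted p = 0.105). The level at 21 d also stood above 3 d (0.38) and 5 d (0.42).

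By group mean Gdf5 was highest at 3 d, and Id2 and Id3 at 28 d. For Id1 the means of 28 d and 3 d, 23.3 and 23.1 FPKM, did not pass the test against each other (limma adjusted p = 0.872). Their order turned after median-ratio scaling (differences from 0 d of 1.24 at 3 d and 1.14 at 28 d) and without the 3 d sample that stood apart (1.58 and 1.49). From 3 d to 5 d, Gdf5 changed by -1.02 and Id1 by -0.77, while Id2 changed by 0.94, and the Id3 difference of -0.04 did not pass the test. Of all tested genes, 23.8% passed it at this step. These steps use the same 3 d samples. Endothelial cells are known for high Id1 and Id3; their markers (6 of 6 found) summed to 97.7 to 111 FPKM at 0 d, 110 to 138 at 1 d, 63.4 to 87.7 at 3 d and 62.6 to 93.0 from 5 d to 28 d. From 3 d on, when Id1 and Id3 had both risen, this sum was below that of every control sample. Satellite cell markers (4 of 4 found), of the muscle stem cells, summed to 2.73 to 3.23 FPKM at 0 d and 5.87 to 6.48 at 14 d. Schwann cell markers (5 of 5 found) summed to 65.9 to 144 FPKM at 0 d and 9.33 to 14.5 at 21 d. Neutrophil markers (4 of 4 found, 1 of them at 0 in all 4 controls) summed to 0.896 to 1.98 FPKM at 0 d and 8.03 to 85.6 at 1 d. Myofibre markers (6 of 6 found) summed to 38587 to 41070 FPKM at 0 d and 21274 to 24801 at 28 d, while Myh1, on the same list, had means of 500.5 and 918 FPKM at these times. The part of these cell types in the Id levels was not tested.

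**Figure D3:**
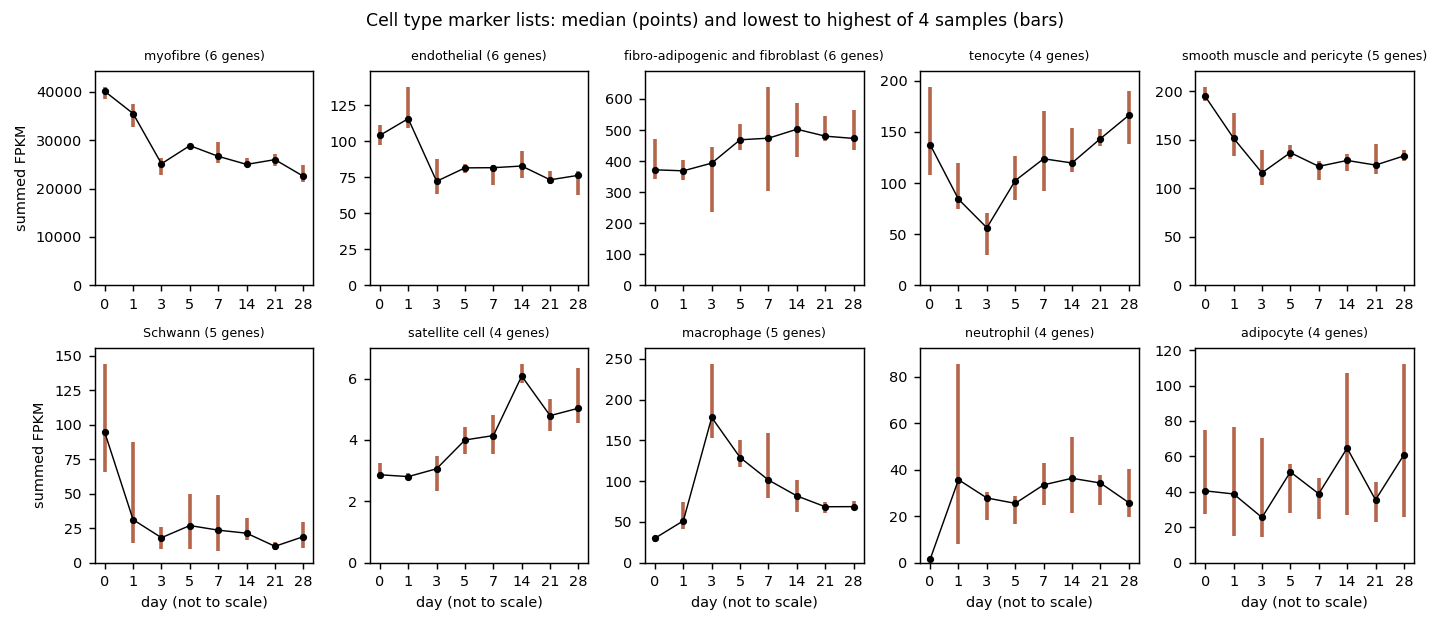
Summed FPKM (vertical axes, each from 0) of 10 lists of cell type markers at 8 time points (horizontal axes, evenly spaced); points are medians and bars run from the lowest to the highest of 4 samples. The macrophage sum is highest at 3 d (152 to 244), the endothelial sum is lower from 3 d on (62.6 to 93.0) than at 0 d (97.7 to 111), and the tenocyte sum is lowest at 3 d.

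The wider pathway was read from a list of 55 other genes in 5 roles, of which 54 were in the table and 48 passed the filter on low values. Grem1, Sost, Cer1, Bmp8b, Gdf2 and Msx2 did not pass it. Higher and lower calls numbered 4 and 4 at 1 d, 5 and 5 at 3 d, 7 and 4 at 5 d, and 9 and 2 at 7 d. They numbered 11 and 2 at 14 d, 9 and 4 at 21 d, and 11 and 2 at 28 d. Of the 48 genes this is 8 to 13 called per time point, beside 8.84%, 19.3%, 18.8%, 19.5%, 18.5%, 15.7% and 18.3% of all tested genes called in either direction. At 1 or more of the 7 time points, 33.2% of all tested genes were called in either direction and 25.7% were called higher, which stands beside the counts by role that follow. The median difference over the 48 ran from -0.01 to 0.10, beside 0.03 to 0.15 over all tested genes. After median-ratio scaling that median was below 0 at every time point, from -0.21 to -0.11, beside -0.01 to 0.02 over all tested genes. The calls were then 3 and 6, 5 and 7, 4 and 8, 6 and 7, 7 and 6, 8 and 5, and 9 and 7, higher before lower and in order of time. Without the 3 d sample that stood apart, 13 genes rather than 10 were called at 3 d: each of the 10 kept its call, and Chrdl2 (0.66), Fstl1 (1.15) and Smad7 (0.63) were higher as well.

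Among the other ligands 1 of 7 tested rose. Gdf6, a ligand of the same subgroup as GDF5, had a mean of 0.138 FPKM at 0 d and rose late, to 2.84 at 14 d, 1.81 at 21 d and 3.51 at 28 d. Its differences at those times were 1.70, 1.29 and 1.98 (SE 0.15, limma adjusted p from 7.64e-12 to 3.79e-08). Bmp2, Bmp3, Bmp5, Bmp6, Bmp8a and Gdf7 neither rose nor fell at any time point as deposited. After median-ratio scaling Bmp6 was called lower at 5, 7, 14 and 28 d (-0.59 to -0.83) and Bmp5 at 3 d (-0.65).

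Of the 10 receptors and coreceptors, 5 were called at some time point, in both directions. Acvr2b, a type II receptor for activins, myostatin and BMPs, fell at all 7 time points, from 2.77 FPKM at 0 d to 0.737 at 3 d (difference -1.12, SE 0.08, limma adjusted p = 6.97e-13) and 1.05 at 28 d. Bmpr1b, the type I receptor that GDF5 is known to prefer, rose at 3, 5, 7, 14 and 28 d, from 2.33 FPKM at 0 d to 5.54 at 3 d (0.97, SE 0.10, limma adjusted p = 1.16e-09). Median-ratio scaling left the 3 d call (0.82) and no other. Both coreceptors of the RGM family that were called, Hjv (hemojuvelin, also named Hfe2) and Rgma, had their lowest level at 3 d. Hjv fell from 277 FPKM to 181 at 1 d and 96.6 at 3 d (-1.52, limma adjusted p = 3.15e-13), and Rgma from 5.10 to 1.66 at 3 d (-1.21, limma adjusted p = 4.08e-10). Median-ratio scaling added calls for both: Hjv was lower at 5 time points (1, 3, 5, 7 and 28 d) and Rgma at all 7 (-0.59 to -1.43). Acvr2a, another type II receptor, rose at 1 d (0.80) and 14 d (0.60), of which 1 d (0.64) kept its call after median-ratio scaling. Bmpr2, Acvr1, Acvrl1, Eng and Rgmb were not called as deposited, and after median-ratio scaling Eng was lower at 28 d (-0.72).

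Among the extracellular antagonists, calls went in both directions. Chrd, which codes for chordin and traps BMP ligands, rose from 5 d on, from 1.22 FPKM at 0 d to 2.93 at 5 d and 6.43 at 28 d (1.73, SE 0.10, limma adjusted p = 3.33e-14). Chrdl2, a chordin-like gene, rose at the same 5 time points, from 0.304 FPKM to 3.08 at 28 d (1.64, SE 0.12, limma adjusted p = 2.73e-12). Sostdc1, which codes for a cystine-knot antagonist, fell at 5 d (-0.63) and 21 d (-0.70) from 0.873 FPKM. Fst, which codes for follistatin and binds activins and some BMPs, was singled out after its values were seen: it rose at 7, 14, 21 and 28 d, from 2.05 FPKM at 0 d to 12.4 at 28 d (2.12, SE 0.18, limma adjusted p = 4.65e-11). Bmper, likewise named afterwards, rose at 28 d (0.92). After median-ratio scaling the first of the Chrd calls (5 d, 0.58) and the first of the Fst calls (7 d, 0.45) fell short of 1.5-fold, and Sostdc1 was lower at 4 time points (5, 7, 14 and 21 d). The rises of Chrd, Chrdl2 and Fst came after the 1 d rise of Nog, at time points at which Nog was not called.

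Transducers and intracellular inhibitors gave 3 called genes of 10. Skil, which codes for the SMAD corepressor SnoN, rose at the 6 time points from 3 d on, from 2.35 FPKM to 6.40 at 3 d (1.12, SE 0.10, limma adjusted p = 2.12e-10). Tob1, an antiproliferative protein known to hold back SMADs in bone cells, fell at 5 time points, from 119 FPKM to 51.7 at 1 d (-1.18, SE 0.08, limma adjusted p = 2.90e-12). After median-ratio scaling Skil was called at 4 time points, with 5 d (0.50) and 14 d (0.56) below 1.5-fold, and Tob1 at all 7. Smad5, the close relative of Smad1, rose at 1 d, from 7.41 to 12.1 FPKM (0.63, SE 0.06, limma adjusted p = 5.80e-09), and the difference was 0.47 after median-ratio scaling. Smad4, Smad7, Smad9, Smurf1, Smurf2, Bambi and Ski were not called at any time point with all samples.

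Targets and partners rose where they were called as deposited, 4 of the 9 tested, while after median-ratio scaling Msx1, which codes for a homeobox factor, was called lower at 3 d (-0.71) and 5 d (-0.59). Atoh8, a helix-loop-helix factor and BMP target, rose at all 7 time points, from 1.30 FPKM at 0 d to 8.66 at 1 d and 18.3 at 3 d (3.05, SE 0.12, limma adjusted p = 9.35e-18). Fbxo30, which codes for the ubiquitin ligase MUSA1 that BMP signalling is known to repress in muscle, also rose at all 7, from 5.44 FPKM to 16.8 at 5 d (1.46, SE 0.10, limma adjusted p = 5.25e-13) and 12.0 at 28 d. Runx2, a bone transcription factor, rose at 6 time points, from 0.125 FPKM to 1.46 at 7 d (1.11, SE 0.12, limma adjusted p = 1.52e-08). Tcf12, an E protein that pairs with Id proteins and myogenic factors, was also named after its values were seen and rose at 7, 14, 21 and 28 d, at most by 0.80, and at no time point after median-ratio scaling. Id4, the remaining Id gene, was not called. Of the tested genes named from this list, Bmp5, Bmp6, Acvrl1, Acvr2a, Eng, Rgma, Chrd, Fst, Id4 and Runx2 share exon bases with a gene on the opposite strand, so without stranded counting their fragments cannot be told apart from those of the partner. Smad5 and Smurf2 share bases with a small RNA gene on their own strand, which stranded counting would not separate.

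**Figure D4:**
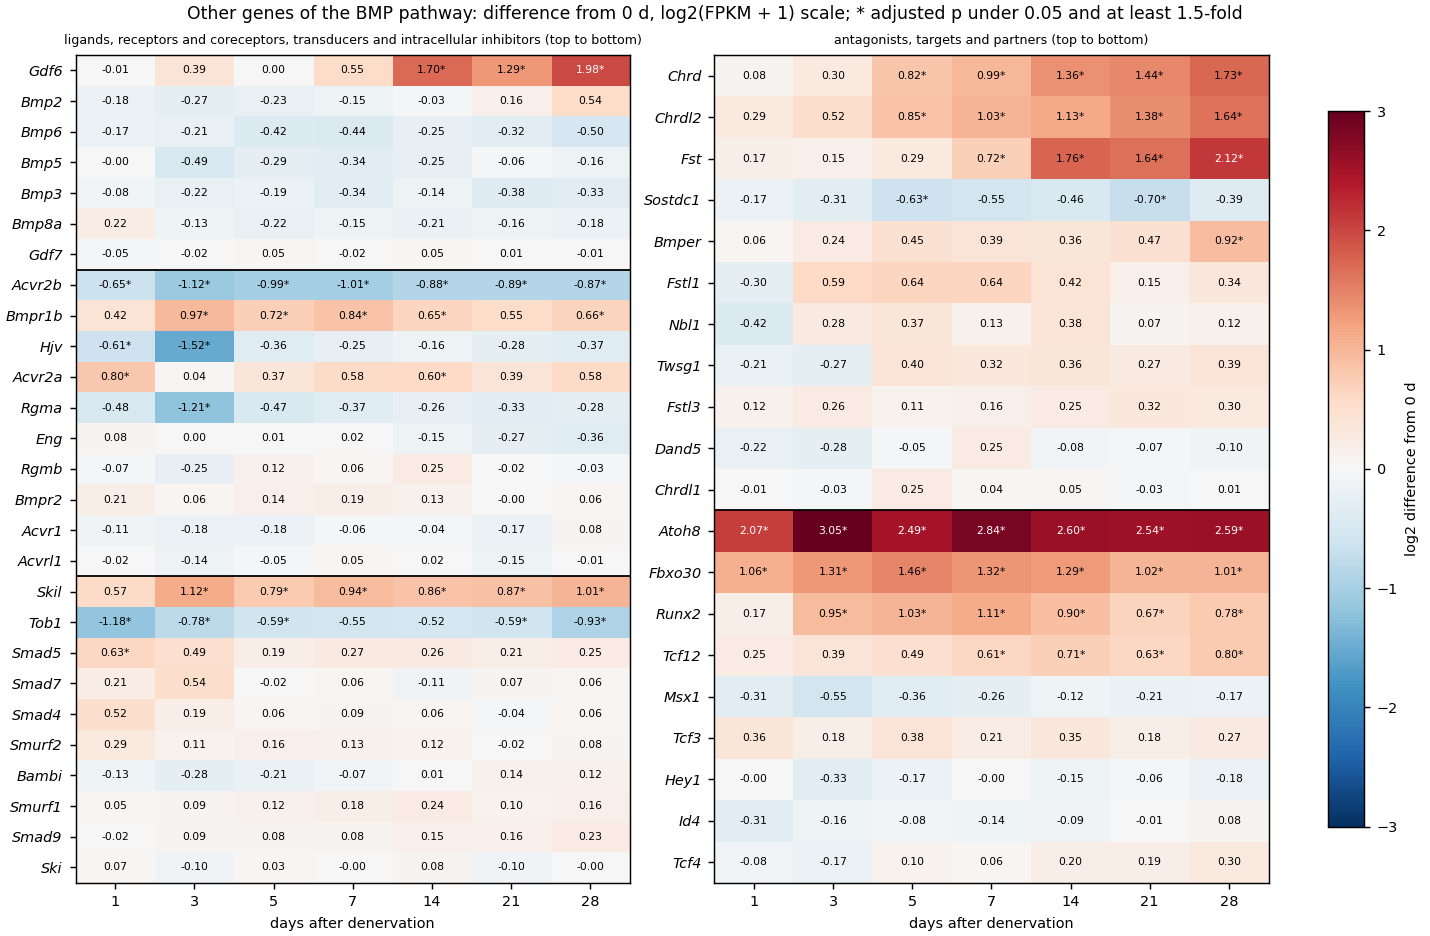
Difference from 0 d on the log2(FPKM + 1) scale (colour and number) for tested genes of the wider BMP pathway at 7 time points, with black lines between roles; stars mark an adjusted p under 0.05 with a change of at least 1.5-fold. Gdf6, Chrd, Chrdl2 and Fst carry their stars late, while Acvr2b, Atoh8 and Fbxo30 carry them at every time point.

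The genes with a course most like Gdf5 and Id1 were looked up over the means of the 8 time points, among 3541 genes that reached a mean of 1 FPKM and spanned at least 1 on the log2 scale. For Gdf5 the 5 highest Pearson r were those of Chpf2 (0.991), Ranbp9 (0.988), Gm12989 (0.986), Zswim4 (0.986) and Vcp (0.985). Chpf2 makes chondroitin chains, Vcp codes for the p97 unfoldase, and Gm12989 is annotated as a processed pseudogene, which may share fragments with its parent gene. Vcp went from 72.2 FPKM at 0 d to 164 at 3 d and 113 at 28 d. For Id1 they were Ctxn3 (0.988), Marveld2 (0.983), Slc7a5 (0.982), Slc25a5 (0.964) and Sema3f (0.943). Slc7a5, an amino acid transporter, went from 1.14 FPKM at 0 d to 7.60 at 3 d, 3.42 at 5 d and 8.85 at 28 d, with the same dip as Id1. The 5 genes of Gdf5 and the 5 of Id1 have no gene in common. These r run over 8 means of the same samples and describe likeness of course only.

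**Figure D5:**
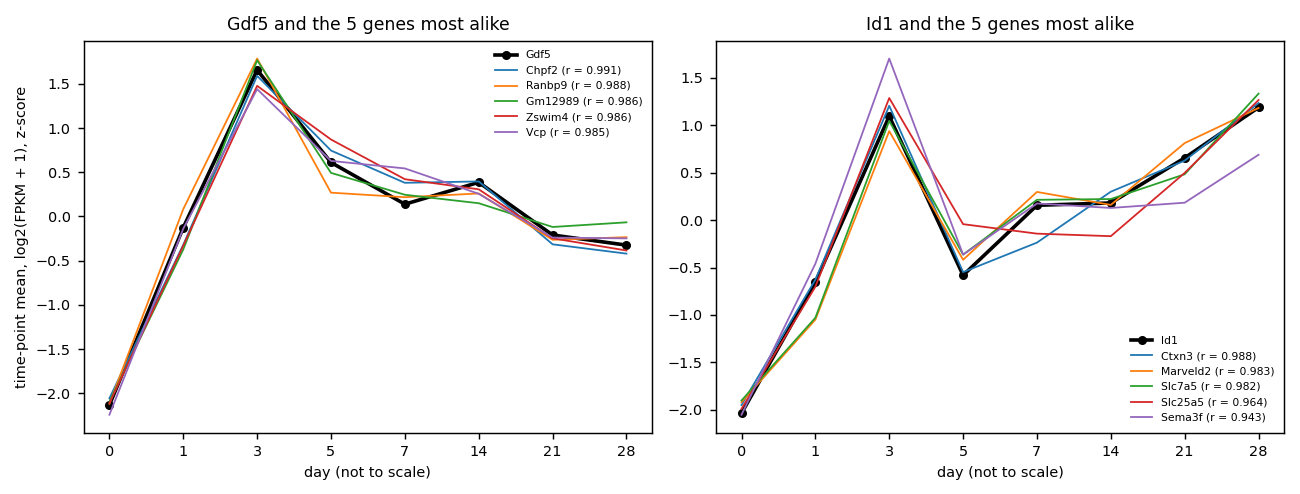
Time-point means of log2(FPKM + 1), each gene set to mean 0 and SD 1 over the 8 time points (vertical axes), against time (horizontal axes, evenly spaced), for Gdf5 (left) and Id1 (right) in black with the 5 genes of highest r in colour. The Gdf5 set peaks at 3 d and declines, and the Id1 set has a peak at 3 d, lower values from 5 d to 14 d and a climb to 28 d, with the low after the peak at 5 d for Id1 and at 14 d for Slc25a5.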

How the data were processed

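RNA of 32 GAS muscle samples was sequenced, and the authors deposited 1 FPKM value per gene and sample for 33397 genes. Per the labels' processing notes the submitters used CASAVA, HISAT2 2.1.0, DESeq2 and the GRCm38 build. The counter and its strand setting are not given in the sources used here, and the RNA-seq test behind the study's gene lists is not named in its text. The labels and the study name different library or extraction kits. Columns carry the time point but no link to a single labelled sample, and were used as 4 samples of a group.

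Exon lengths of GENCODE release M21 matched 33356 genes and turned FPKM back into fragments; 99.3% to 99.4% of values under 200 fragments were whole within 0.05. The fragment total per sample that the FPKM scaling implies ran from 14199902 to 17561584 (median 16663160). Fragments of the 48 pairs of samples of a time point differed beyond sampling noise (chi-square per degree of freedom 4.00 to 66.6). The 22071 genes that reached 0.1 FPKM in 4 or more samples were taken to log2 with a pseudocount of 1 and fitted with limma 3.58.1 in R 4.3.3, with 1 coefficient per time point over all 32 samples, a variance trend, two-sided tests and Benjamini-Hochberg adjustment. The fit was tested on simulated data. Ratios of Gdf5 fragments carry exact 95% intervals. Python 3.11.15, numpy 2.4.6, pandas 2.3.3 and matplotlib 3.10.9 did the rest.

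The 10 genes, the list of 55 pathway genes and the marker lists were chosen with earlier results of these data known. Named from the pathway list were, in each role, up to 3 genes called at the most time points and any called gene that moved against the others, and for Gdf5 and Id1 the 5 genes of highest Pearson r. Alternatives covered the pseudocount, the filter, TPM, median-ratio and quantile scaling, the mitochondrial total, the variance trend, the samples in the fit, limma-voom, the fold threshold and leaving out each sample. An item that the naming rule covers is not reported here. Other assays of the study were not analysed here.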

Additional observations from a re-analysis of the deposited data

Results flagged for a closer look

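At 1 d, 1 of the 4 samples held 7.56 FPKM of Nog against 4.94 to 5.25 in the others, a gap past Dixon's 95% critical value. Of 80 groups tested, 1 was past it, and chance gives about 4.

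Neighbouring time points were compared for each gene after denervation, which asks whether the difference from 0 d changed between them, and 13 of 60 steps passed the limma test at an adjusted p under 0.05. Of all tested genes, 30.9% passed from 1 d to 3 d, 23.8% from 3 d to 5 d, 1.96% from 5 d to 7 d, 2.54% from 7 d to 14 d, 1.61% from 14 d to 21 d and 0.476% from 21 d to 28 d. From 1 d to 3 d the differences changed by 1.73 for Gdf5, -0.39 for Bmp4, 0.20 for Bmpr1a, -0.52 for Nog, 0.81 for Id1, 0.67 for Id2 and 0.81 for Id3 on the log2 scale. From 3 d to 5 d they changed by -1.02 for Gdf5, -0.33 for Smad1, -0.77 for Id1 and 0.94 for Id2. Id2 changed by 0.61 from 5 d to 7 d, and Gdf5 by -0.58 from 14 d to 21 d. After median-ratio scaling the Bmpr1a step (0.16) and the late Gdf5 step (-0.50) did not pass. Without the sample that stood apart at 3 d, the Nog step was -0.37 and did not pass, and without the highest 1 d sample it was -0.40 and did not pass.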

How the results depend on the processing

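Gdf5, Id2 and Id3 kept the direction of each call against 0 d at every alternative run. No called value changed sign, while values that were not called did for Bmp4, Bmp7, Bmpr1a, Nog, Smad6 and Smad1 under a rescaling, for Bmp7 with limma-voom, and for all of these but Smad1 when 1 sample was left out. Of the 10 genes, 2 were called at 1 d under median-ratio scaling and 2 under quantile normalization. Counts without 1 sample ran from 3 to 4 at 1 d, 4 to 6 at 3 d (6 without the sample that stood apart) and 4 to 5 at 28 d, and were 4 at each other time point. For the pathway list, 16 genes were called at 3 d with a pseudocount of 0.1, with TPM and with limma-voom. With no fold threshold 17, 23, 24, 24, 22, 23 and 26 were called in order of time. For all tested genes the counts were 1950, 4254, 4148, 4308, 4075, 3466 and 4049, and rose to 3621, 6847, 6934, 7267, 7138, 6057 and 7277 with a pseudocount of 0.1, to 3625, 6965, 7069, 7368, 7310, 6155 and 7370 with limma-voom, and to 6493, 9559, 10068, 10429, 10434, 9227 and 10518 with no fold threshold. With TPM they were 3313 at 1 d and 7135, 7448, 7610, 5720 and 7216 from 5 d on. The pseudocount of 1 shrinks the change of low genes, so fewer of them reach 1.5-fold. The share of higher calls among all genes called was 71.8% at 1 d, 68.7% at 3 d and 75.0% to 79.5% later as deposited, and 44.8% to 49.6% after median-ratio scaling. Nog at 3 d was past 1.5-fold with a pseudocount of 0.1 (0.61), TPM (0.71) and limma-voom (0.64), and did not pass the test after median-ratio scaling (0.31). Smad1 and Id1 lost calls under the scalings named with them. No paired analysis was possible because the columns carry no replicate number of the labels. The steps between time points were run under the alternatives after their values were seen. At 0 d, 0 to 4 fragments of Gdf5 per sample limit its ratio, and Bmp7 rests on few fragments.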
